A study of Homo sapiens with 11 samples.

Results

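VMA21 and 9 further genes of the vacuolar proton pump were examined in MDA-MB-231 cells, a line from a human triple-negative breast adenocarcinoma. The 10 genes were TMEM199 and CCDC115 (current symbols VMA12 and VMA22), which assist VMA21 in assembly, ATP6AP1 and ATP6AP2, ATP6V0A1, ATP6V0C and ATP6V0D1 of the membrane sector, and ATP6V1A and ATP6V1H of the cytosolic sector. They were chosen by name, around VMA21, which had been picked because its signal was more than 2-fold lower under MASTL siRNA at 24 h and at 48 h. Of the 47321 probes on each array, 10 carried these names, covering 9 of the 10 genes. No probe was named for ATP6V0C in the annotation used, so the signal of that gene was not read here. ATP6V1H had 2 probes and each of the other genes had 1. The series named 20046 genes in all. Every one of the 10 probes exceeded 7.40, the log2 noise limit, on all 11 arrays. The limit is a low one, which 23524 of the 47321 probes exceeded on each array.

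The vacuolar ATPase uses ATP to move protons into lysosomes, endosomes and the Golgi. Its V1 sector hydrolyses ATP in the cytosol and its V0 sector carries protons through the membrane. VMA21 is a small protein of the endoplasmic reticulum that helps to assemble V0, and inherited loss of its function causes an X-linked myopathy with excessive autophagy. The acid made by the pump is what lysosomal hydrolases need to work, and the pump also takes part in the activation of mTORC1 on the lysosome.

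The study compared a negative control siRNA of no target with 1 siRNA directed at MASTL, the Greatwall kinase that restrains PP2A-B55 at mitotic entry, and total RNA was profiled on 1-colour bead arrays. Control siRNA was represented by 3 arrays at 24 h (replicates 1, 2 and 3) and 3 at 48 h (1, 3 and 4), and MASTL siRNA by 2 at 24 h (1 and 3) and 3 at 48 h (1, 3 and 4). All groups were the same cell line, with no engineered allele named, and all had received lipid-carried siRNA. With 1 siRNA sequence, an effect of MASTL loss and another effect of that siRNA cannot be told apart. The sequence given for it, shown because every siRNA comparison below rests on it, is printed as the labels have it.
MASTL siRNA: acgccttattctagcaaatta

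The MASTL probe of higher level read 8.71 ± 0.054 (SD, n = 3) in 24 h controls and 7.65 ± 0.052 (n = 2) under MASTL siRNA, and 8.52 ± 0.18 (n = 3) against 7.58 ± 0.077 (n = 3) at 48 h, with every MASTL siRNA array below every control array (2.08-fold and 1.91-fold lower, limma adjusted p = 0.00143 and 0.00121). Both MASTL siRNA means lay near the noise limit of 7.40, so these folds may understate the loss of MASTL RNA. Replicates are not stated to be separate cultures; the p-values then reflect the variation between these arrays alone, which may be technical. Array pairs of one group correlated at 0.9905 to 0.9969 across 22972 tested features, each a gene or an unnamed probe. Vimentin, galectin-1 and annexin A1 probes averaged 12.52 or more and the highest CD44 probe 12.50, while probes of CDH1, PGR and PTPRC exceeded the noise limit on 0 arrays and that of ESR1 on 1. KRT18 was near the floor (7.71 and 8.0), and EPCAM probes, expected low, averaged 7.63 to 9.36, and the endothelial PECAM1 probe 7.70, above the limit on every array.

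VMA21 had the lower signal in all 5 MASTL siRNA arrays. At 24 h its values were 10.99, 11.03 and 11.29 in the controls and 9.78 and 10.01 under MASTL siRNA. At 48 h they were 10.95, 10.93 and 10.97 in the controls and 9.73, 9.85 and 9.88 under MASTL siRNA. The highest MASTL siRNA array, 10.01, was below the lowest control array, 10.93, so the groups did not overlap. Groups without overlap were found for 25.1% of all features at 24 h and 18.4% at 48 h, from which nothing is read for a gene chosen by this contrast. The group means were 11.10 ± 0.16 (n = 3) against 9.90 ± 0.16 (n = 2) at 24 h and 10.95 ± 0.021 (n = 3) against 9.82 ± 0.079 (n = 3) at 48 h. The log2 change was -1.20 (SE 0.095) at 24 h, or 2.3-fold lower, and -1.13 (SE 0.085) at 48 h, or 2.19-fold lower. These values chose the gene and carry no test. In arrays of whole cultures, less RNA per cell and fewer cells that express the gene cannot be told apart.

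Among all 22972 features, VMA21 ranked 10th from the lowest change at 24 h and 8th at 48 h. It was 1 of 11 features, 0.0479% of those tested, that were over 2-fold lower at both times. Just inside that line lay DENR (-1.24 and -1.08), HIGD1A (-1.25 and -1.05) and TPM4 (-1.26 and -1.04). Just outside lay CAPZA2 (-1.16 and -0.996), VCL (-0.96 and -1.01) and ESAM (-1.12 and -0.96).

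**Figure D1:**
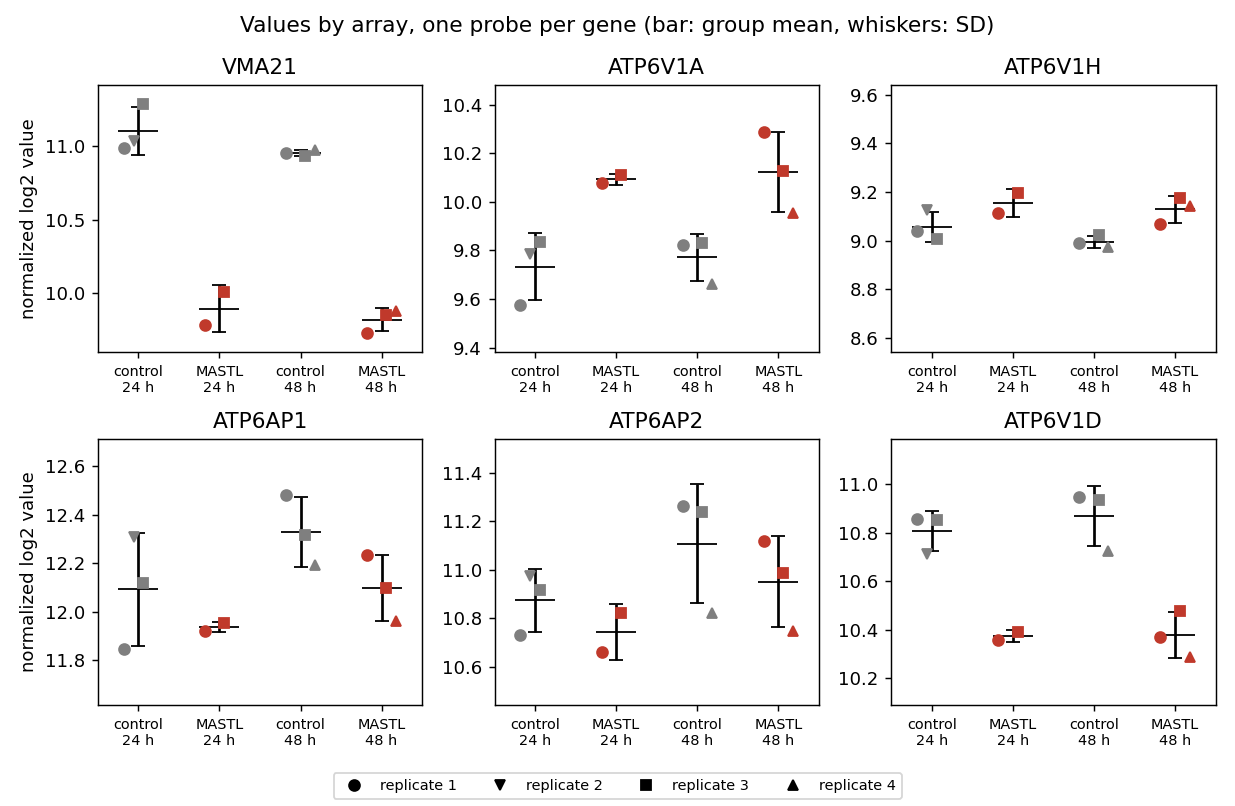
Normalized log2 values of 6 pump genes in each of the 11 arrays, by siRNA and time, with 1 probe per gene; points are arrays with their replicate number as the marker, bars are group means and whiskers SD, and the vertical ranges differ between panels. VMA21 and ATP6V1D were lower and ATP6V1A was higher under MASTL siRNA without overlap with the controls of the same time. Of all features, 25.1% did not overlap at 24 h and 18.4% at 48 h.

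The order of the VMA21 group means was 24 h control, 48 h control, 24 h MASTL siRNA and 48 h MASTL siRNA. The control arrays of the 2 times did not overlap, with 48 h lower by 0.15 (95% interval -0.34 to 0.041), a difference that did not pass the test (limma adjusted p = 0.618). The MASTL siRNA arrays of the 2 times overlapped. The 48 h change minus the 24 h change was 0.075 (95% interval -0.21 to 0.36). Both changes were used to choose VMA21, so their difference is a description and carries no test. The control arrays of both times entered that choice as well. Over all features, 0 (0%) were called for the difference between the changes and 0 (0%) for time under control siRNA. At an unadjusted p under 0.05 limma gave 707 and 2230 features. Among the other members, ATP6V0D1 had control arrays that did not overlap between times, lower at 48 h by 0.15 (adjusted p = 0.287), as did 13.3% of all features in either direction.

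The sequence before the start of VMA21 is given because its RNA is what the account turns on. It is RefSeq's, build GRCh38.p14, chrX:151396956-151397205, plus strand, the 250 bases before the annotated start. Capitals mark the GC box, GGGCGG or its reverse complement CCGCCC, of which a search of both strands found 2.
VMA21: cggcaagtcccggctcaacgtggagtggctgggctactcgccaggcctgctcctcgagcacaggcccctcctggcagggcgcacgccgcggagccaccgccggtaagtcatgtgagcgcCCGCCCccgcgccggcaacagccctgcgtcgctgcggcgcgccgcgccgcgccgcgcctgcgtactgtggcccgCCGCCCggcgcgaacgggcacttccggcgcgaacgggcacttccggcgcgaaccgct
Its G and C content was 76.8%. A GC box occurred in 42.6% of 35116 such windows of the table. It was in 8 of 10 windows of the members, VMA21 included, and in 13 of 20 windows of other pump subunits. The genes of ATP6AP1 and ATP6AP2 also lie on the X chromosome.

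The other assembly factors did not follow VMA21. TMEM199, which works in a complex with CCDC115 in the assembly of the pump, read 8.12, 8.0 and 8.18 in 24 h controls and 8.13 and 8.21 under MASTL siRNA. At 48 h it read 7.98, 8.11 and 8.0 against 7.89, 8.06 and 8.05. The groups overlapped at both times, and the log2 changes were 0.072 (95% interval -0.089 to 0.23, limma adjusted p = 0.879) and -0.029 (-0.17 to 0.11, adjusted p = 0.92). CCDC115 read 8.52, 8.71 and 8.27 in 24 h controls against 8.53 and 8.45, and 8.49, 8.50 and 8.35 against 8.52, 8.43 and 8.52 at 48 h. Its groups overlapped as well, with log2 changes of -0.0075 (95% interval -0.26 to 0.24, adjusted p = 0.995) and 0.044 (-0.18 to 0.27, adjusted p = 0.922). For neither gene did the interval reach the size of the VMA21 change.

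Among the 8 measured members other than VMA21, 0 were called at 24 h and 0 at 48 h at a limma adjusted p under 0.05, where 0.849% and 2.25% of all features were called. At an unadjusted p under 0.05 the members were ATP6V0D1 and ATP6V1A at 24 h (0.0443 and 0.00784) and ATP6V1A and ATP6V1H at 48 h (0.00486 and 0.00949), or 2 of 8 each time, beside 8.95% and 13.7% of all features. The median log2 change of the 8 was 0.032 at 24 h and 0.019 at 48 h, beside 0.0029 and 0.0011 over all features.

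**Figure D2:**
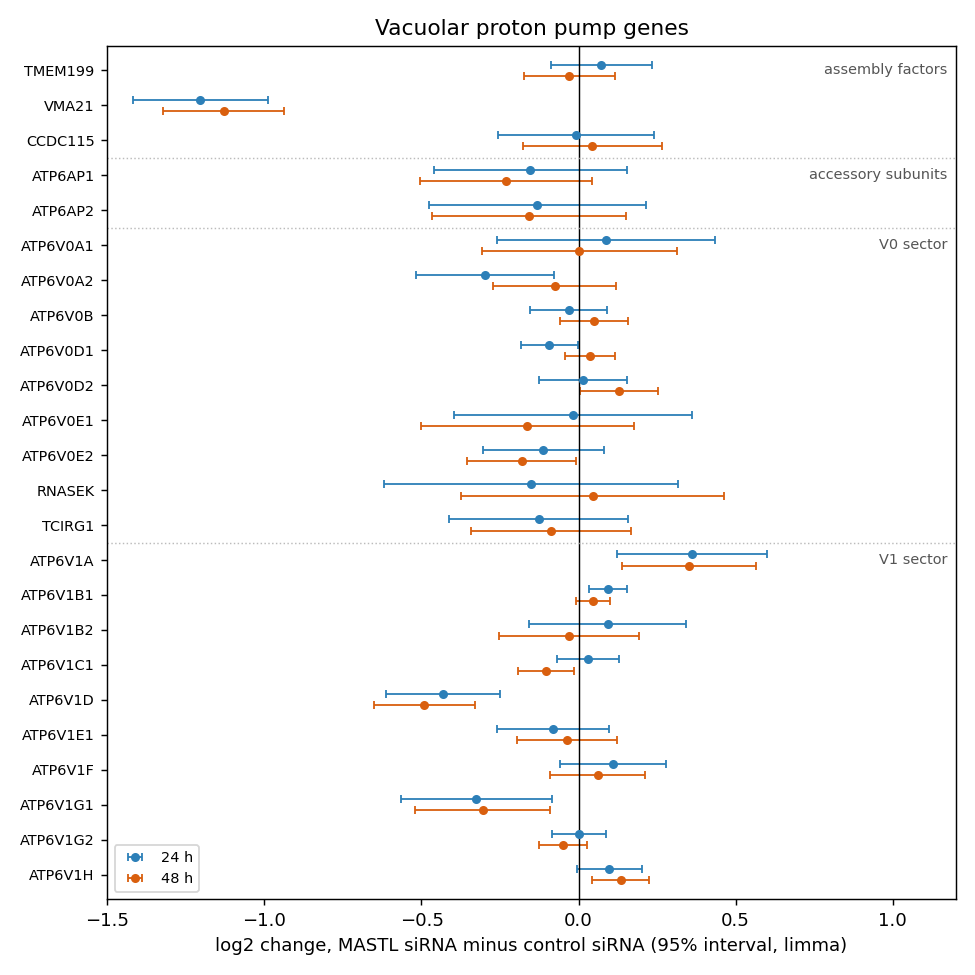
Log2 change between MASTL and control siRNA at 24 h and 48 h for every tested gene of the pump, with 95% intervals from limma, ordered as assembly factors, accessory subunits, V0 sector and V1 sector. VMA21 stands apart at -1.20 and -1.13, the next lowest gene being ATP6V1D at -0.43 and -0.49 and the highest ATP6V1A at 0.36 and 0.35.

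At 48 h, arrays of the same replicate number deviated from their group means together, so those arrays were also fitted as pairs, with the replicate number as a block within each time. In that fit 6.05% of all features were called higher and 5.63% lower at 48 h. Of the 8 members, 1 was then higher (ATP6V1A) and 2 lower (ATP6AP1 and ATP6AP2). These 3 calls at 48 h were lost when both arrays of any 1 replicate number at 48 h were left out of the paired fit. At 24 h, where only 2 pairs exist and the numbers were not taken to pair arrays, the same fit called 1.04% of all features higher and 1.75% lower; control replicate 2, which has no partner, adds nothing to its 24 h changes. It called 1 of the 8 members higher at 24 h, ATP6V1A, and 0 lower. Over all features, the 48 h paired fits without replicate 1, 3 or 4 called 660, 604 and 688 higher and 629, 653 and 744 lower.

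ATP6AP1 and ATP6AP2 encode accessory subunits that sit in the V0 sector, the latter also known as the prorenin receptor. ATP6AP1 read 11.85, 12.31 and 12.12 in 24 h controls and 11.92 and 11.95 under MASTL siRNA, which overlapped. At 48 h it read 12.48, 12.32 and 12.19 in control replicates 1, 3 and 4 and 12.23, 12.10 and 11.96 in the MASTL siRNA arrays of the same numbers. The groups overlapped there too, but each MASTL siRNA array was below its own number's control, by 0.25, 0.22 and 0.23. The 48 h log2 change of -0.23 was not called without the block (SE 0.12, limma adjusted p = 0.471) and was called with the replicate block (SE 0.046, adjusted p = 0.0304). Without 1 pair, the paired adjusted p was 0.121 to 0.138. At 24 h the change was -0.15 (SE 0.14, adjusted p = 0.854), and the 2 same-number differences were of opposite sign, 0.075 and -0.17.

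ATP6AP2 read 10.73, 10.98 and 10.92 in 24 h controls against 10.66 and 10.82, changing by -0.13 (SE 0.15, limma adjusted p = 0.904). At 48 h it read 11.26, 11.24 and 10.82 against 11.12, 10.99 and 10.75. Replicate 4 was the lowest array of each 48 h group, and the groups overlapped. The same-number differences were -0.15, -0.25 and -0.075, all negative. The 48 h change of -0.16 was not called without the block (SE 0.14, adjusted p = 0.723), and with the replicate block its adjusted p was 0.048, or 0.053 to 0.162 without 1 pair.

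**Figure D3:**
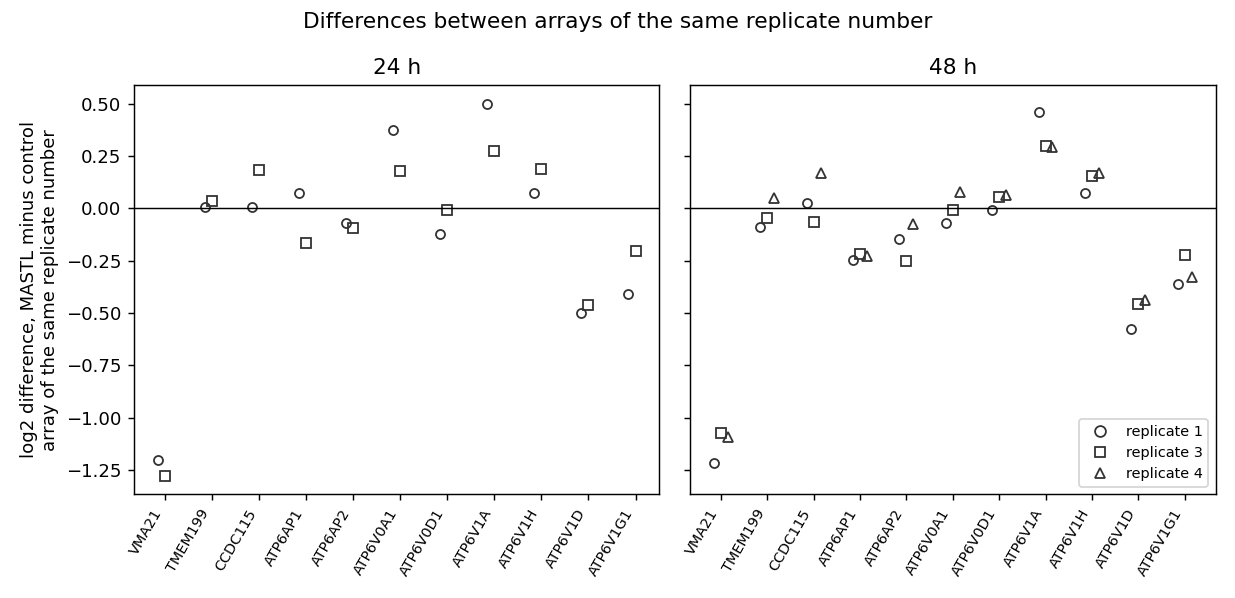
Log2 difference between the MASTL and the control siRNA array of the same replicate number, for the 9 measured members and for ATP6V1D and ATP6V1G1, at 24 h (replicates 1 and 3) and 48 h (1, 3 and 4). VMA21, ATP6V1D and ATP6V1G1 were negative and ATP6V1A and ATP6V1H positive in all 5 comparisons; ATP6AP2 was also negative in all 5, and ATP6AP1 in the 3 at 48 h and 1 of 2 at 24 h.

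The measured V0 members did not pass the test. ATP6V0A1, the a-type subunit that forms the proton path with the c ring, read 10.67, 11.29 and 10.75 in 24 h controls and 11.05 and 10.93 under MASTL siRNA. Control replicate 2 was the highest of these arrays and the groups overlapped (log2 change 0.087, SE 0.15, limma adjusted p = 0.943). Without that array the groups did not overlap and the change was 0.28 (SE 0.055, adjusted p = 0.105). The fit with the replicate block, to which that array adds nothing at 24 h, gives the same change by construction (SE 0.057, adjusted p = 0.0753). At 48 h its values were 11.04, 10.99 and 10.89 against 10.97, 10.98 and 10.98, a change of 0.0020 (95% interval -0.31 to 0.31, adjusted p = 0.998). ATP6V0D1, the d subunit that couples the rotor to the c ring, read 9.99, 10.07 and 9.97 against 9.87 and 9.96 at 24 h. Every MASTL siRNA array was below every control, by a small margin (log2 change -0.093, SE 0.040, adjusted p = 0.54). Groups of 25.1% of all features did not overlap at 24 h. At 48 h ATP6V0D1 read 9.90, 9.86 and 9.82 against 9.90, 9.91 and 9.88, which overlapped (log2 change 0.037, SE 0.035, adjusted p = 0.761).

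In the V1 sector, ATP6V1A, the catalytic subunit that binds and splits ATP, had the higher signal in every MASTL siRNA array. It read 9.58, 9.79 and 9.84 in 24 h controls and 10.08 and 10.11 under MASTL siRNA. At 48 h it read 9.82, 9.83 and 9.66 against 10.29, 10.13 and 9.96. The groups did not overlap at either time, beside the shares of all features without overlap, 25.1% at 24 h and 18.4% at 48 h. The log2 change was 0.36 (SE 0.11, limma adjusted p = 0.254) at 24 h and 0.35 (SE 0.094, adjusted p = 0.112) at 48 h, 1.28-fold, not called at either time. With the replicate block ATP6V1A rose at 48 h (0.35, SE 0.055, adjusted p = 0.0146), with an adjusted p of 0.0546 to 0.0694 when 1 pair was left out. At 24 h, where the numbers were not taken to pair arrays, that fit gave 0.39 (SE 0.067, adjusted p = 0.0498).

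ATP6V1H, a regulatory subunit that helps to hold V1 inactive when it is detached from V0, read 9.04, 9.13 and 9.01 in 24 h controls and 9.11 and 9.20 under MASTL siRNA. At 48 h it read 8.99, 9.02 and 8.97 against 9.07, 9.18 and 9.14, without overlap, as for 18.4% of all features. The log2 changes of 0.098 (SE 0.045, limma adjusted p = 0.591) and 0.13 (SE 0.040, adjusted p = 0.16) were not called. Its other probe, nearer the noise limit, gave group means of 7.45 and 7.46 at 24 h and 7.49 and 7.46 at 48 h.

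The rest of the pump was read from a list of 19 further subunits, of which 15 had a tested probe. At 24 h 0 of the 15 were called, beside 0.849% of all features. At 48 h 1 fell and 0 rose, where 1.24% of all features were called lower and 1.01% higher. The median log2 change of the 15 was -0.032 at 24 h and -0.051 at 48 h.

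The called gene was ATP6V1D, a subunit of the central rotor that turns inside V1. It read 10.86, 10.71 and 10.85 in 24 h controls against 10.36 and 10.39, and 10.95, 10.93 and 10.73 against 10.37, 10.48 and 10.29 at 48 h. Every MASTL siRNA array was below every control at both times, beside 25.1% of all features without overlap at 24 h and 18.4% at 48 h. ATP6V1D fell by 0.49 on the log2 scale at 48 h (SE 0.071, limma adjusted p = 0.0101), 1.4-fold lower, and was called at 48 h without any 1 of the 11 arrays. The 24 h change of -0.43 (SE 0.079, adjusted p = 0.0522) missed the threshold and passed in 6 of 20 alternative settings. Among them was the fit with the replicate block (-0.48, SE 0.041, adjusted p = 0.00698), whose numbers were not taken to pair arrays at 24 h.

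The fit with the replicate block called 1.04% of all features higher and 1.75% lower at 24 h, and 6.05% and 5.63% at 48 h. In it, 1 of the 15 was lower (ATP6V1D) and 0 higher at 24 h, where the numbers were not taken to pair arrays. At 48 h 3 fell and 0 rose. Besides ATP6V1D (-0.49, SE 0.033, limma adjusted p = 0.00154) these were ATP6V1G1, of the stalk that holds V1 still (-0.31, SE 0.048, adjusted p = 0.0148), and ATP6V0E2, a small V0 subunit (-0.18, SE 0.028, adjusted p = 0.0144), both named after their values were seen. ATP6V1G1 read 10.85, 10.86 and 10.76 in 24 h controls against 10.44 and 10.55, and 11.13, 10.86 and 10.81 against 10.76, 10.64 and 10.48 at 48 h. Its groups did not overlap at either time, beside 25.1% of all features at 24 h and 18.4% at 48 h. Without the block it was not called (limma adjusted p = 0.336 at 24 h and 0.171 at 48 h). Its paired call was kept without replicate 3 at 48 h (adjusted p = 0.043) and lost without replicate 1 (0.0833) or 4 (0.078). ATP6V0E2 was called without replicate 4 but not without 1 or 3, and ATP6V1D was called in all 3 of these fits.

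Pump genes are known targets of the transcription factor TFEB, which binds a motif built on the E-box CACGTG, so the 250 bases before each start were searched for it on both strands (the E-box is its own reverse complement), a search chosen after the values were seen. It occurred in 6.34% of 35116 windows, where a gene with several starts has several windows. It was in 2 of 10 windows of 8 members, those of ATP6V0D1 and CCDC115, and in 4 of 20 windows of 13 other subunits, those of ATP6V0B, ATP6V0E2 (2 windows) and ATP6V1G1. The 2 ATP6V0E2 windows overlapped and shared 1 E-box, so by gene the counts were 2 of 8 and 3 of 13. ATP6V1A and ATP6V1H had no window in the search. The 8 members with a window included VMA21 and ATP6V0C, so they are not the 8 measured members above. The 13 other subunits included ATP6V0A4, ATP6V1C2 and ATP6V1G3, which had no tested probe. A further window of CCDC115 and 1 of ATP6V0E2 held none. The longer TCACGTGA, which contains the E-box, occurred in 0.854% of windows, among them those of ATP6V0D1 and ATP6V1G1. The VMA21 and ATP6V1D windows held neither. The stretches are shown with the E-box nearest the start in capitals (RefSeq, GRCh38.p14; ATP6V0B and CCDC115 each held 2), each 5′ to 3′ on the strand of its gene.
ATP6V0D1, chr16:67481199-67481228, minus strand: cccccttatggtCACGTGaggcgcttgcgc
CCDC115, chr2:130342682-130342711, minus strand: tacagaatgtcaCACGTGacttaggaccgc
ATP6V0B, chr1:43974909-43974938, plus strand: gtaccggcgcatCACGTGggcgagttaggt
ATP6V0E2, chr7:149872884-149872913, plus strand: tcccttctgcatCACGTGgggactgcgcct
ATP6V1G1, chr9:114587699-114587728, plus strand: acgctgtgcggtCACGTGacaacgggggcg
Genes with the E-box in their window included ATP6V1G1 and ATP6V0E2, lower at 48 h in the paired fit, and ATP6V0D1, CCDC115 and ATP6V0B, not called in either fit. The other kept ATP6V0B probe gave -0.37 at 24 h and -0.041 at 48 h, not called (limma adjusted p = 0.26 and 0.926, each probe a feature). A match of letters is a description of the window and not a binding site.

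Proteins that bind or use the pump were read from 5 further lists. Of 7 tested regulators of V1 attachment (the RAVE complex and TLDc-domain proteins), 0 were called at either time, with or without the block. Of all features, 0.849% were called at 24 h and 2.25% at 48 h without the block. With it 1.04% were higher and 1.75% lower at 24 h, and 6.05% and 5.63% at 48 h. At such shares, 0 of 7 is not read as a result. The median log2 changes of the 7 were -0.020 at 24 h and -0.0033 at 48 h. OXR1 gave -0.020 and 0.054 and NCOA7 -0.17 and -0.11, both TLDc-domain proteins.

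At 24 h 0 of 19 tested lysosomal hydrolases were called without the block, beside 0.849% of all features. At 48 h, where 1.01% of all features were called higher, 1 of the 19 rose. This was CTSC, a dipeptidyl peptidase that activates other proteases, at 9.70, 9.60 and 9.51 in controls and 10.29, 10.23 and 10.25 under MASTL siRNA. It rose by 0.65 (SE 0.065, limma adjusted p = 0.00208), or 1.57-fold, and 3 other CTSC probes gave 0.53, 0.53 and 0.063. With the replicate block, 1 of the 19 was lower at 24 h, the sialidase NEU1 (-0.46, SE 0.057, adjusted p = 0.0192), and 0 were higher. Over all features that block gave 1.75% lower and 1.04% higher at 24 h, where the numbers were not taken to pair arrays. In that fit 1 rose and 6 fell at 48 h, against 6.05% and 5.63% of all features. The 6 were TPP1 (-0.52), CTSD (-0.39), CTSB (-0.37), NEU1 (-0.34), SMPD1 (-0.22) and GLA (-0.20), enzymes that break down peptides, glycans and lipids, with adjusted p from 0.00131 to 0.0371. The other kept probes of CTSB and SMPD1 gave -0.29 and -0.088 at 48 h. Leaving out replicate 1, 3 or 4 at 48 h left 3, 2 and 4 lower; TPP1 and NEU1 fell in all 3 fits and GLA in 0. The list's median log2 change was -0.043 at 24 h and -0.091 at 48 h.

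Of 14 tested genes on a list of lysosomal membrane proteins and NPC2, 0 were called at either time without the block. Each gene was read by its probe of highest mean, and 0.849% of all features were called at 24 h and 2.25% at 48 h. With the block, 0 were called at 24 h, where 1.04% of all features rose and 1.75% fell. At 48 h in that fit 1 rose and 4 fell, against 6.05% and 5.63% of all features. LAMP2, a major coat protein of the lysosome, gave -0.60 (paired SE 0.044, limma adjusted p = 0.00177), and its 5 other probes gave -0.69 to -0.16. Of these, the probes at -0.69 and -0.55 were called at 48 h without the block (limma adjusted p = 0.0384 and 0.0461, each probe a feature). That fit called 633 of 28325 probes. NPC1, which exports cholesterol, gave -0.45, the cystine carrier CTNS -0.31 and SCARB2 -0.15, while the calcium channel MCOLN1 gave 0.17. The other kept CTNS probe gave -0.0505 at 48 h. Without replicate 1, 3 or 4, the paired fit called 2, 3 and 3 lower, LAMP2 and CTNS each time and SCARB2 in 0 of these fits, and MCOLN1 was kept without replicate 4 alone. NPC2 (-0.15 at 24 h and -0.10 at 48 h) and LAMP1 (-0.041 and -0.012) were not called. The list's medians were -0.026 and -0.096.

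A list of 12 tested genes covered the Ragulator and Rag GTPase scaffold, which brings mTORC1 to the lysosome beside the pump. It also held SLC38A9, FLCN, FNIP1 and FNIP2. Of the 12, 0 were called at 24 h, beside 0.849% of all features, and 1 fell at 48 h, where 1.24% of all features fell. RRAGC, a Rag GTPase, read 9.35, 9.37 and 9.36 in 48 h controls and 9.18, 9.17 and 9.11 under MASTL siRNA, and fell by 0.21 (SE 0.033, limma adjusted p = 0.015). It lost the call without 48 h control replicate 1 (-0.21, adjusted p = 0.0557) or 3 (-0.20, 0.0662) or MASTL siRNA replicate 4 (-0.19, 0.0511). With the replicate block 1 of the 12 was lower at 24 h, RRAGA (-0.24, SE 0.034, adjusted p = 0.0282), and 0 were higher. Over all features it called 1.75% lower and 1.04% higher at 24 h, where the numbers were not taken to pair arrays. At 48 h in that fit RRAGA (-0.30), RRAGB (-0.16) and RRAGC fell, 3 of the 12, and 0 rose, against 5.63% and 6.05% of all features. RRAGA and RRAGC were called in that fit without any 1 replicate number, and RRAGB lost its call without 1 or 3 (all at 48 h). The other kept RRAGB probe gave -0.12 at 48 h. The list's medians were -0.045 and -0.039.

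Of 15 tested genes of the TFEB family and autophagy, 0 were called at either time without the block. That was beside 0.849% of all features at 24 h and 2.25% at 48 h. With the block, 0 were called at 24 h. At 48 h 3 rose (MITF, UVRAG and ATG16L1, 0.15 to 0.21) and 2 fell (SQSTM1, an autophagy receptor, -0.36, and GABARAPL1, -0.23). That fit called 1.04% of all features higher and 1.75% lower at 24 h, and 6.05% and 5.63% at 48 h. The other kept probes of MITF, UVRAG and ATG16L1 gave 0.024, 0.016 and 0.11 at 48 h. SQSTM1 without the block had a limma adjusted p of 0.445. GABARAPL2 gave -0.13 and -0.11, and its other kept probe 0.062 and -0.015. None of the 5 genes called with the block was called in all 3 fits without a replicate number. Those fits left 2, 0 and 0 higher and 1, 2 and 1 lower. TFEB itself had no probe past the noise filter. The list's medians were -0.052 and -0.00070.

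**Figure D4:**
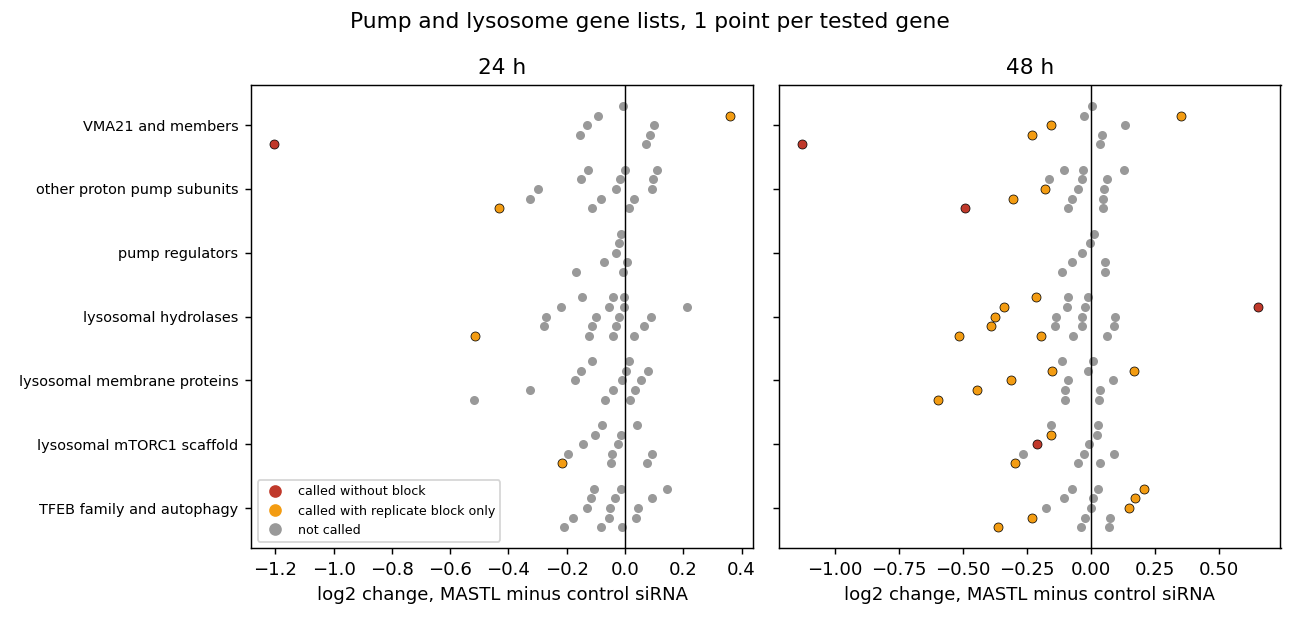
Log2 change between MASTL and control siRNA for each tested gene of the pump and lysosome lists at 24 h and 48 h; red points were called at a limma adjusted p under 0.05, orange points only with the replicate number as a block, grey points not, and the horizontal ranges differ. VMA21, which was chosen on these contrasts, is the lowest point at both times, and the red points at 48 h are VMA21, ATP6V1D, CTSC and RRAGC.

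The features whose values over the 11 arrays were most like those of VMA21, by Pearson correlation (r), were ZNF614 (0.987), COPG2 (0.986), CCP110 (0.984), UBQLN2 (0.983) and TMPO (0.983). They encode a zinc finger protein, a coatomer subunit, a centriole cap protein, a ubiquilin and a nuclear lamina protein. The VMA21 arrays fell into separate ranges, 9.73 to 10.01 under MASTL siRNA and 10.93 to 11.29 in controls, so these correlations follow that split over arrays shared by all genes and are given as a description. The log2 changes at 24 h and 48 h were -0.44 and -0.37 for ZNF614, -0.81 and -0.76 for COPG2, -0.73 and -0.63 for CCP110, -0.55 and -0.52 for UBQLN2, and -0.91 and -0.84 for TMPO. The members themselves ranged widely, with r of 0.40 for ATP6AP1, 0.30 for ATP6V0D1, 0.26 for ATP6AP2, 0.099 for TMEM199, -0.17 for CCDC115, -0.20 for ATP6V0A1, -0.71 for ATP6V1H and -0.86 for ATP6V1A.

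**Figure D5:**
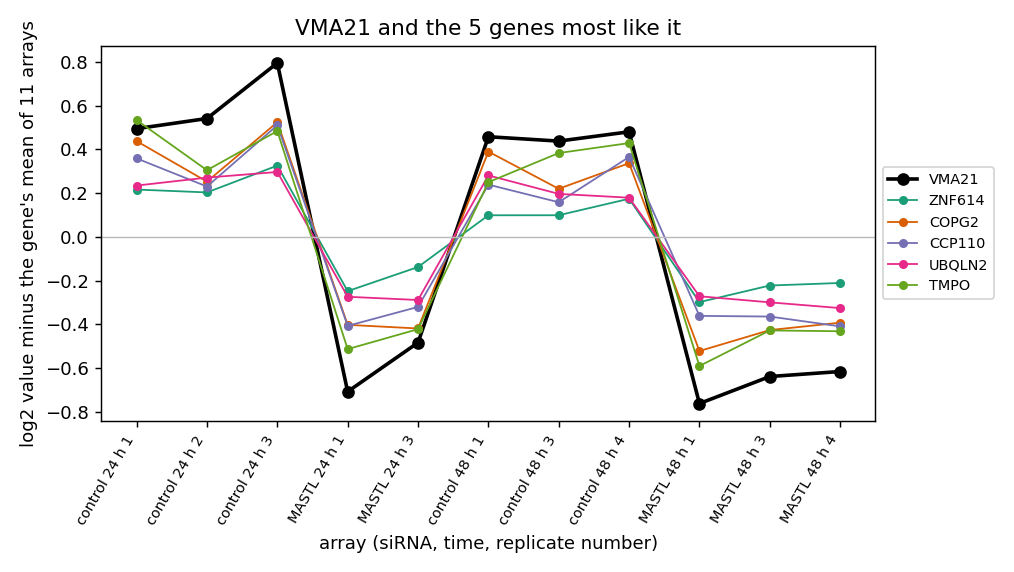
Log2 value minus the mean of the 11 arrays for VMA21 and the 5 genes of highest Pearson correlation with it, by array in order of siRNA, time and replicate number. All 6 genes were above their mean in the 6 control arrays and below it in the 5 MASTL siRNA arrays, VMA21 with the widest span.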

How the data were processed

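The series used Illumina 1-colour bead arrays of total RNA amplified to biotin-labelled cRNA, per the labels' protocols. Normalized values on a log2 scale, as the authors deposited them, were used; lumi is named in the submitters' processing notes, with no version or role. The log2 scale was taken from their range (7.2365 to 14.5122), and every array had the same sorted values to within 0.000698. Background correction and transform are not given in the sources used here. A second table, with 22 columns of signals and detection p-values, was left out, since no column name in it matches a sample, and detection was judged from the values instead.

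Noise was centred on the mode of the values, 7.354. Its lower side was reflected, and the limit was set at the 95th percentile of the result, 7.4047. Probes above it on at least 2 arrays were kept (28325). Symbols came from the platform annotation, updated through the Entrez number. The probe of highest mean stood for a gene, giving 14348 genes and 8624 unnamed probes. A mean per group was fitted to all 11 arrays with limma 3.58.1 in R 4.3.3 (7 residual degrees of freedom plus 1.66 by moderation), Benjamini-Hochberg adjusted, called under 0.05, two-sided. A run on simulated data checked only that the fit returned the mean size of changes put in. Its noise was independent between arrays, without the deviations shared by replicate number. Figures used matplotlib 3.10.9.

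The members, lists and motifs were chosen with earlier results of these data known. The text names the members, MASTL, genes of other lists called in either siRNA comparison or else the 2 of highest level, and the 5 features most like VMA21; genes called only with the block were added after their values were seen. Whether replicate numbers pair arrays was checked from the correlation, over features, of deviations from group means. At 48 h it was 0.691, 0.547 and 0.772 for replicates 1, 3 and 4, which were taken as pairs on that evidence and not the labels'. At 24 h there were only 2 pairs (0.104 and 0.468), and numbers did not pair arrays across times (-0.3 to 0.161).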

Additional observations from a re-analysis of the deposited data

Results flagged for a closer look

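ATP6V0D1, the d subunit of V0, was below the control mean in both MASTL siRNA arrays at 24 h (log2 change -0.093) and above it in all 3 at 48 h (0.037). The 48 h change minus the 24 h change was 0.13 (SE 0.053), which did not pass the test of the difference (limma adjusted p = 1, unadjusted p = 0.0383). Groups of 2 or 3 arrays are too small to test for outlying arrays.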

How the results depend on the processing

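The count of members called was 1 at each time, VMA21 itself, which was chosen on these contrasts. At 24 h it became 2 with the replicate block within each time and 0 with only the 2 groups compared in the fit, where VMA21 kept its change of -1.20; at 48 h it became 2 with the replicate block and 4 with the replicate block within each time. For 48 h against 24 h under control siRNA it went from 0 to 3 with the replicate block (ATP6AP1, ATP6AP2 and ATP6V0A1), a fit whose numbers did not pair arrays across times; the block within each time could not be fitted there. Over all features, 195 were called at 24 h, 355 with the replicate block, 640 with it within each time, 56 with only the 2 groups, and 56 to 198 without 1 array, with 95, 67 and 56 without control replicate 1 or MASTL siRNA replicate 1 or 3 of 24 h. At 48 h 517 were called, 1841 and 2682 with the blocks, 340 with only the 2 groups, 247 to 564 without 1 array (247 and 258 without 48 h control replicate 1 or 3, and 335, 291 and 328 without 48 h MASTL siRNA replicate 1, 3 or 4), and, in an alternative added after seeing the data, 1289, 1257 and 1432 with the block and without replicate 1, 3 or 4. Time under control siRNA gave 0, 2552 with the replicate block, 1 with a variance trend and 38 without 24 h control replicate 2. ATP6V1D at 48 h was lost with only the 2 groups (adjusted p = 0.0547), and RRAGC with the trend (0.262). The paired counts of each list without 1 replicate number stand beside them. No call changed direction. The number of arrays and the nearness of low probes to the noise limit bound the precision.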
